A study of Mus musculus with 6 samples.

Results

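The forkhead (Fox) genes encode transcription factors that share a winged-helix DNA-binding domain. Members were taken from the GENCODE M21 annotation of GRCm38, the assembly also called mm10, as the protein-coding genes whose symbol is Fox, a letter from a to s and a number. This gave 44 of 21911 protein-coding genes, each with 1 symbol, and no measured value entered the choice. The accessibility of their chromatin was examined in nuclei of P1 mouse hearts.

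Forkhead factors bind a short A-rich core sequence, and several of them, the FoxA factors in particular, are known to bind DNA within compacted chromatin. In the heart and its vessels, FoxO factors act downstream of insulin and PI3K-AKT signaling and restrain growth and the cell cycle, FoxP1 acts in myocardial and endocardial development, FoxC1, FoxC2 and FoxF1 act in vascular and outflow tract mesoderm, and FoxM1 drives mitotic genes in dividing cells. Other members are known as regulators of endoderm, brain, kidney, gonad, thymus or regulatory T cells, and the family therefore mixes genes used in the heart with genes used elsewhere.

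Omni-ATAC-Seq, in which a transposase tags open chromatin, was run on 50000 heart nuclei for each library, taken at postnatal day 1. All nuclei came from a 2.2 M sucrose cushion, the denser of those in the study's protocol and the one meant for cardiomyocyte nuclei, and each of 3 groups had 2 biological replicates. The Input libraries are from WT hearts without immunoprecipitation, the Myc libraries are from Nkx2-5 Cre/+; R26RSun1-Myc-Egfp/+ hearts after magnet-assisted nuclear immunoprecipitation (MAN-IP) through the Myc tag, and the PCM1 libraries are from hearts labelled WT and enriched by MAN-IP through PCM1, a protein found around cardiomyocyte nuclei. In the Myc hearts, Cre under the control of Nkx2-5 turns on a nuclear membrane tag from the ROSA26 locus, and this lineage holds cardiomyocytes and also smooth muscle and endocardial or endothelial cells. The number of hearts in a library is not given in the sources used here, and the spread between replicates may be partly technical. Each antibody is tied to 1 way of preparing the nuclei and, by the labels, Myc also to 1 genotype, so these cannot be told apart.

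The deposited peak lists held between 75336 and 131500 peaks per library. The genome background behind the peaks, which scales with depth, was 3.96 and 1.02 (Input), 1.44 and 1.44 (Myc) and 0.977 and 0.903 (PCM1), so that Input replicate 1 was 4.38 times as deep as the shallowest library. Where no peak is listed, none was detectable at the depth of that library. Of 8 cardiomyocyte markers, 7 had a peak within 1 kb of the TSS in every library (Tnni3 had none), where 56.1% of all protein-coding genes did. The same held for 5 of 8 fibroblast markers, 6 of 8 endothelial markers and 7 of 8 smooth muscle and pericyte markers. It also held for 5 of 8 epicardial markers and 1 of 8 immune markers. The counts do not set the cardiomyocyte list apart from the smooth muscle and pericyte list. The libraries labelled PCM1 and WT went against their label at Sun1, the gene carried by the nuclear tag. Peak summits in Sun1 coding exons numbered 0 and 0 (Input), 4 and 4 (Myc) and 3 and 7 (PCM1). The genotype of the PCM1 libraries is therefore unsettled, and every comparison with PCM1 below carries this doubt. Counts of genes and regions with a peak in every library are also given for the Input and Myc libraries alone. On these 4 libraries, a peak in every library was found for 6 epicardial and 6 fibroblast markers (and 58.7% of all genes). The counts of the other lists were the same.

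Each gene was scored in each library by the strongest peak within 1 kb of its TSS. The strength of a peak is its rank percentile, the position of its −log10 q-value among all peaks of the same library, where 100 is the strongest peak and 0 stands for no peak. A percentile depends on how many peaks a list holds, and a weak site near the end of a short list can rank above a like site in the middle of a long list or below it. A second scale, the pileup of reads at the summit divided by the genome background of the library, was used where the size of a difference is given. With 2 libraries per group, an exact two-sided permutation test between 2 groups cannot go below p = 0.333, so no call was made from a p-value. A difference was counted where both libraries of a group lay above both libraries of the other group. Counts from the full lists of all 6 libraries are set beside the share of all genes or regions that met the same condition. For most other settings this share was not calculated.

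Sequences of 201 bp around the summit are printed for 7 peak regions of Fox genes, from GRCm38.p6, on the strand of the gene. They were chosen after their values were seen, as the strongest intronic regions of Foxk1, Foxp1 and Foxo6, the upstream region of Foxo3, the regions of Foxo3 and Foxo4 with a forkhead match, and a Foxp1 region of the Myc libraries alone. They lie at chr5:142440565-142440765 (Foxk1, plus strand), chr6:99485299-99485499 (Foxp1, minus), chr4:120283256-120283456 (Foxo6, minus), chr10:42277709-42277909 (Foxo3 upstream, minus), chr10:42251327-42251527 (Foxo3 intron, minus), chrX:101254005-101254205 (Foxo4 promoter, plus) and chr6:99320720-99320920 (Foxp1 in Myc, minus). None overlaps an annotated exon. Capitals mark matches to the letters searched: the GC box GGGCGG, the CCAAT box CCAAT, the forkhead core GTAAACA, and CTATTTTTA, an A/T-rich form of the MEF2 motif that was added after the Foxp1 sequence was seen, each on either strand. A match describes the letters and does not show that a factor was bound.
Foxk1 intron: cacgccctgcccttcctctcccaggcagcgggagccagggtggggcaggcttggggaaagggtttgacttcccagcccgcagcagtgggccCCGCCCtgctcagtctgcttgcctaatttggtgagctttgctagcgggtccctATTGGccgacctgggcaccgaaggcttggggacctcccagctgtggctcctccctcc
Foxp1 intron: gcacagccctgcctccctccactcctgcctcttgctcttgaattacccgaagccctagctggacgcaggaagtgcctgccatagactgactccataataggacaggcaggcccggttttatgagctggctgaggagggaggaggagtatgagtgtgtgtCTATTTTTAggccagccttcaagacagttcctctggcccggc
Foxo6 intron: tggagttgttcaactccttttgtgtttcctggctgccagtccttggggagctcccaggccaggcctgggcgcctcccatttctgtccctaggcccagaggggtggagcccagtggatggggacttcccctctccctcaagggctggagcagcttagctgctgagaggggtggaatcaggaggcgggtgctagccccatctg
Foxo3 upstream: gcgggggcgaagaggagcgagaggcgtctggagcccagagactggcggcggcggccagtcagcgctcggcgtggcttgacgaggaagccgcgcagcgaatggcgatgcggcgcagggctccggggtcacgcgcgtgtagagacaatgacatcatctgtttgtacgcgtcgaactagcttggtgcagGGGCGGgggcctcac
Foxo3 intron: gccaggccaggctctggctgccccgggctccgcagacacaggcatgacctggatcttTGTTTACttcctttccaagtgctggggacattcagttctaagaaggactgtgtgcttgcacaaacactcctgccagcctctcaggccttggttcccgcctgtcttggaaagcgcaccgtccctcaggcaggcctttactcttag
Foxo4 promoter: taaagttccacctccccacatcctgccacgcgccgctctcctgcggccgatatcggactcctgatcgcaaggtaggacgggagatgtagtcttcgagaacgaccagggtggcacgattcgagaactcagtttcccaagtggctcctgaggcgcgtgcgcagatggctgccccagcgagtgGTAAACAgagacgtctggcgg
Foxp1 intron of the Myc libraries: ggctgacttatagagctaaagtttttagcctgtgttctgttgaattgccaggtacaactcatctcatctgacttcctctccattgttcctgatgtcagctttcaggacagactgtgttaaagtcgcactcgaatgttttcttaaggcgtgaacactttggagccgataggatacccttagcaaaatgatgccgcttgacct

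Of the 44 Fox genes, 22 (50%) had a peak within 1 kb of the TSS in every library, where 56.1% of all protein-coding genes did. These were Foxa3, Foxc1, Foxc2, Foxd1, Foxd2, Foxf1, Foxj1, Foxj2, Foxk1, Foxk2, Foxm1, Foxn2, Foxn3, Foxo1, Foxo3, Foxo4, Foxo6, Foxp1, Foxp2, Foxp3, Foxp4 and Foxs1. A further 12 had a TSS peak in some libraries, among them Foxa1, Foxa2, Foxb2, Foxd4, Foxe1, Foxe3, Foxf2, Foxi2, Foxi3, Foxl2 and Foxn4. The other 10 (22.7%, against 31.8% of all genes) had none in any library: Foxb1, Foxd3, Foxh1, Foxi1, Foxj3, Foxl1, Foxn1, Foxq1, Foxr1 and Foxr2. Without the PCM1 libraries, 23 Fox genes had a TSS peak in all Input and Myc libraries (58.7% of all genes did), with Foxe1 added through peaks at different sites of its window, and 11 had none, with Foxn4 added.

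The number of Fox TSSs with a peak was higher in the deeper Input library. It was 32 and 25 in the Input replicates (66.0 and 59.8% of all genes, 72.7 and 56.8% of Fox genes), 27 and 27 in Myc (63.7 and 63.5% of all genes) and 26 and 23 in PCM1 (60.2 and 59.8% of all genes). The replicates of Input lay farther apart than the groups. With the whole gene and 2 kb to either side as the window, 27 Fox genes (61.4%, against 70.1% of all genes) had a peak in every library, and 4 (9.09%, against 19.4%) had none, which were Foxi1, Foxl1, Foxr1 and Foxr2. Without the PCM1 libraries, 31 had a peak in every library and 4 had none, and the share of all genes was not calculated for this window. These windows held 267 and 155 peaks (Input), 209 and 206 (Myc) and 168 and 164 (PCM1), or between 0.190 and 0.206% of each list.

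**Figure D1:**
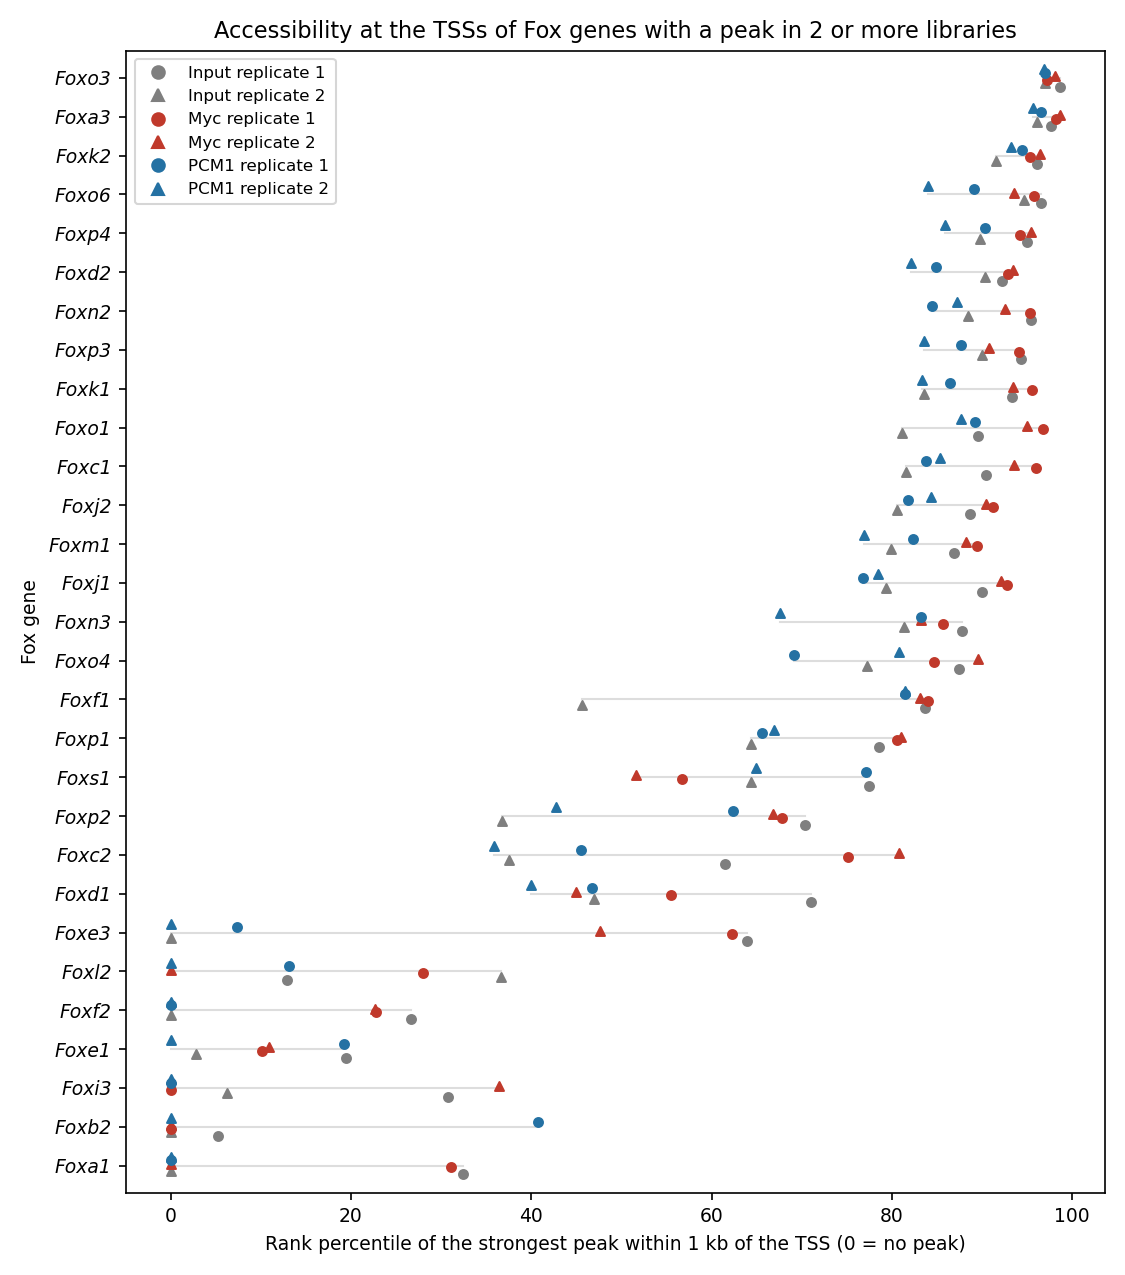
Rank percentile of the strongest peak within 1 kb of the TSS (x axis, 0 where no peak was called) for the Fox genes with a TSS peak in at least 2 libraries, ordered by their median. Points are libraries, with the colour for the group and the shape for the replicate, and the grey line spans the 6 values. Foxo3 lay at or above 96.9 in all 6 libraries, and the genes at the bottom had no peak in several libraries.

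The 4 FoxO genes, effectors of insulin and growth factor signaling, all had a TSS peak in every library. Foxo3 (ENSMUSG00000048756.11, chr10:42181841-42276755, minus strand), which drives autophagy and atrophy genes in muscle, had the highest TSS percentiles among peaks that hold no other gene's TSS, at 98.7 and 97.0 (Input), 97.2 and 98.1 (Myc) and 96.9 and 96.9 (PCM1). The summit lay between 956 and 1054 bp upstream of the annotated TSS, in the region printed above, which holds 25 CpG dinucleotides in 201 bp and no annotated TSS. A separate region over the Foxo3 TSS itself had percentiles of 93.9 and 86.8 (Input), 91.9 and 88.9 (Myc) and 92.1 and 92.1 (PCM1). Both regions were thus among the strong peaks of each list, and the upstream region ranked higher in every library.

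Foxo1 (ENSMUSG00000044167.6, chr3:52268336-52353221, plus strand), a FoxO factor needed for vascular development, showed a large difference between groups. Its TSS percentiles were 89.5 and 81.2 (Input), 96.7 and 95.0 (Myc) and 89.2 and 87.6 (PCM1). Both Myc libraries were above the other 4, and the mean difference from Input was 10.6 points, beyond the largest distance between replicates of 8.35 points. On the depth-scaled pileup, Foxo1 was at 59.9 and 61.5 times the genome background (Input), 154 and 132 (Myc) and 84.0 and 85.3 (PCM1). The ratio of Myc to Input was 2.36, where the median over 12292 genes with a TSS peak in every library was 1.19, and 0.724% of these genes had a higher ratio.

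The TSS peak of Foxo4 (ENSMUSG00000042903.8, chrX:101254528-101260873, plus strand) had percentiles of 87.4 and 77.2 (Input), 84.7 and 89.5 (Myc) and 69.1 and 80.7 (PCM1). Myc was above PCM1 by 12.2 points, close to the distance of 11.6 points between the PCM1 replicates. With each list held to its strongest 75336 peaks, Foxo4 was at 78.2 and 84.9 (Myc) and 65.9 and 79.2 (PCM1), and the groups overlapped. Its summit lay between 410 and 434 bp upstream of the TSS, and the printed window holds the only forkhead match found in a Fox region with a coding TSS and a peak in every library. Foxo6, a FoxO gene known mainly from the brain (ENSMUSG00000052135.8, chr4:120267079-120287349, minus strand), was at 96.6 and 94.6 (Input), 95.8 and 93.6 (Myc) and 89.1 and 84.0 (PCM1), so that both PCM1 libraries were lowest.

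Among FoxP genes, Foxp1 (ENSMUSG00000030067.17, chr6:98925338-99522721, minus strand), a factor of myocardial proliferation and outflow tract septation, had TSS percentiles of 78.6 and 64.4 (Input), 80.6 and 81.1 (Myc) and 65.6 and 67.0 (PCM1). The annotated gene start used here is that of noncoding transcripts, and the first coding transcripts start 1559 bp further inside. The mean of Myc lay 14.6 points above PCM1, with at most 1.39 points between replicates of those groups. The strongest peak was not at 1 site, however, since its summit lay 51 and 23 bp downstream of the gene start in Input replicate 1 and Myc replicate 2 and between 675 and 729 bp upstream of it in the other 4 libraries. The comparison therefore mixes these sites. Foxp4, a close relative in lung and heart, had 95.0 and 89.8 (Input), 94.3 and 95.4 (Myc) and 90.4 and 86.0 (PCM1). For Foxp2, which is known from the brain and lung, the values were 70.3 and 36.8 (Input), 67.8 and 66.8 (Myc) and 62.4 and 42.7 (PCM1). The distance between replicates of Foxp2 was 19.7 points in PCM1, above its difference of 14.7 points between Myc and PCM1. For Foxp2 as well, the summit lay between 491 and 545 bp upstream in replicate 1 of each group and between 92 and 125 bp downstream in replicate 2.

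Foxp3, the factor of regulatory T cells, had percentiles of 94.3 and 90.0 (Input), 94.1 and 90.8 (Myc) and 87.7 and 83.6 (PCM1). This peak did not contain the Foxp3 TSS in any library. Its summit lay between 734 and 797 bp downstream of it, in a region that holds the TSSs of Ppp1r3f and of the antisense RNA Flicr, and 6 of 8 immune markers had no TSS peak in any library. In the same way the Foxa3 peak, at 97.7 and 96.1 (Input), 98.2 and 98.7 (Myc) and 96.6 and 95.7 (PCM1), lay between 709 and 794 bp upstream of the Foxa3 TSS and over the TSS of Sympk, a gene of RNA 3′ end processing. Foxh1, a SMAD partner of early embryos, had no TSS peak, and the region in its window held the TSS of Ppp1r16a. For these 3 genes the peak cannot be assigned to the Fox gene.

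FoxK, FoxJ and FoxN genes are mostly expressed in many tissues, and most had strong TSS peaks. Foxk2 was at 96.1 and 91.5 (Input), 95.3 and 96.5 (Myc) and 94.5 and 93.2 (PCM1). Foxk1, which with Foxk2 regulates glycolysis and autophagy and was first found in muscle progenitors, was at 93.3 and 83.5 (Input), 95.5 and 93.4 (Myc) and 86.4 and 83.3 (PCM1). Foxn2 was at 95.5 and 88.5 (Input), 95.3 and 92.6 (Myc) and 84.5 and 87.2 (PCM1). In Foxk1, Foxk2 and Foxn2 both Myc libraries lay above both PCM1 libraries. For Foxk2 this no longer held with the strongest 75336 peaks of each library, at 93.3 and 94.9 (Myc) and 93.9 and 92.7 (PCM1).

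Foxn3, a repressor with a role in cell cycle checkpoints, had TSS percentiles of 87.8 and 81.3 (Input), 85.7 and 83.3 (Myc) and 83.3 and 67.6 (PCM1). Foxj2 had 88.7 and 80.6 (Input), 91.3 and 90.4 (Myc) and 81.8 and 84.3 (PCM1) at its first TSS, and a second coding TSS lying 6761 bp downstream was stronger, at 97.5 and 95.5, 95.8 and 94.6, and 95.5 and 90.4 in the same order. Foxj3, known from mitochondrial gene expression in muscle through Mef2c, had no peak at its annotated gene start. Its coding transcripts that start between 2657 and 3518 bp further downstream shared a peak at 95.1 and 90.3 (Input), 94.5 and 94.8 (Myc) and 89.6 and 86.3 (PCM1). Foxj3 was thus without a TSS peak only by the choice of TSS.

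Foxj1, the regulator of motile cilia, was accessible in every library, at 89.9 and 79.3 (Input), 92.8 and 92.1 (Myc) and 76.8 and 78.4 (PCM1). Myc exceeded PCM1 by 14.8 points, with at most 1.65 points between replicates of either group. Foxm1, which drives mitotic genes, shares its start with Rhno1, whose TSS lies 56 bp away on the other strand. The shared peak was at 86.9 and 79.9 (Input), 89.4 and 88.2 (Myc) and 82.4 and 76.9 (PCM1), and both Myc libraries were above the other 4.

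Foxc1 and Foxc2, which act in vascular mesoderm, had higher values in Myc. Foxc1 (ENSMUSG00000050295.4, chr13:31806633-31812476, plus strand), a factor of vascular and outflow tract development, was at 90.5 and 81.6 (Input), 96.0 and 93.6 (Myc) and 83.8 and 85.4 (PCM1). Foxc2 (ENSMUSG00000046714.7, chr8:121116171-121118895, plus strand), its close relative in lymphatic and arterial vessels, was at 61.5 and 37.5 (Input), 75.2 and 80.8 (Myc) and 45.5 and 35.9 (PCM1). Both Myc libraries lay above the other 4 libraries for both genes. The mean difference of Foxc2 was 28.5 points from Input, with 24.0 points between the Input replicates, and 37.3 points from PCM1, with at most 9.67 points between replicates. The summit of Foxc2 lay between 7 and 27 bp upstream of the TSS in the Input and Myc libraries and 573 and 577 bp inside the gene in the PCM1 libraries, so that values of Foxc2 in PCM1 are of another site than those in Myc.

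In depth-scaled pileups, Foxc1 was at 61.7 and 59.6 times the genome background (Input), 149 and 112 (Myc) and 64.5 and 68.6 (PCM1). Foxc2 was at 19.2 and 20.5 (Input), 43.7 and 53.6 (Myc) and 24.6 and 22.1 (PCM1). On this scale the Input replicates lay close together, although their percentiles did not. The ratio of Myc to Input was 2.15 for Foxc1 and 2.45 for Foxc2, the highest of the 22 Fox genes with a TSS peak in every library, and 1.77 and 0.504% of the 12292 genes had a higher ratio. Against PCM1, the ratios of 1.96 and 2.08 were exceeded by 11.8 and 8.96% of genes, where the median gene had 1.27, and for Foxc2 this ratio is between different sites. With Foxo1, these were the 3 Fox genes with a Myc to Input ratio above 2.

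**Figure D2:**
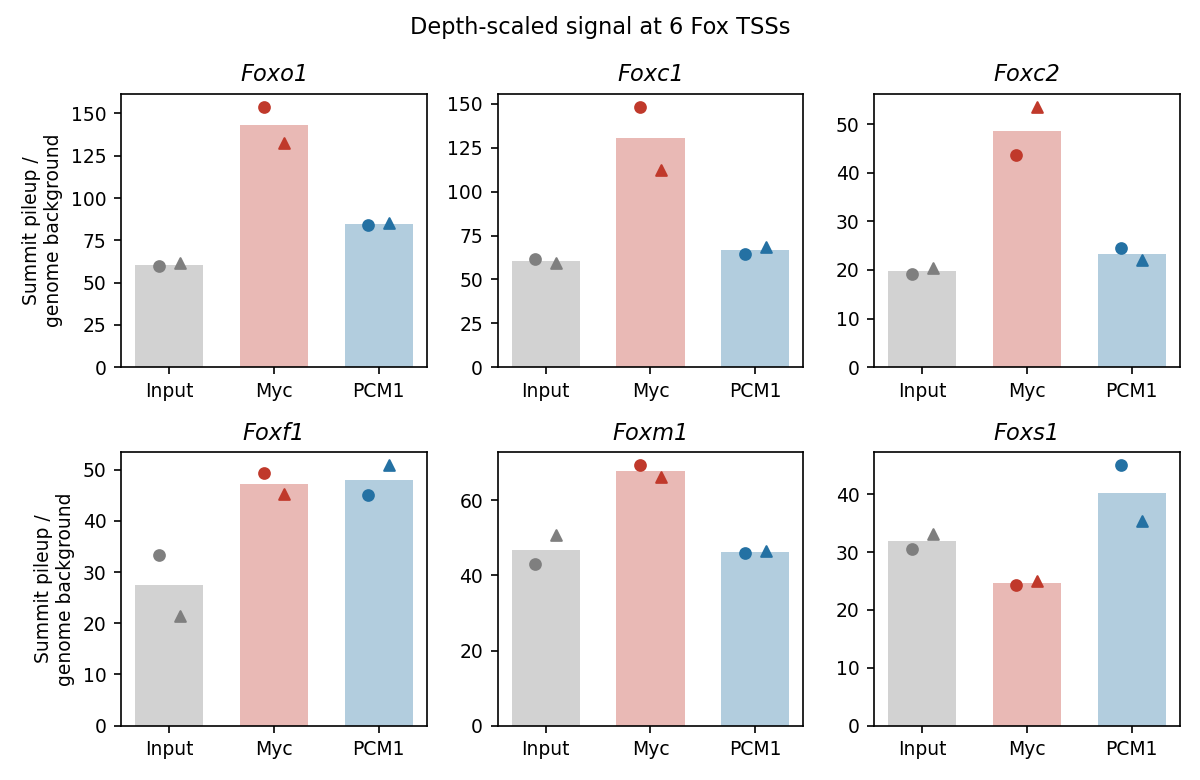
Pileup at the summit of the strongest TSS peak divided by the genome background of the library (y axis, starting at 0, with a separate scale for each gene) for Foxo1, Foxc1, Foxc2, Foxf1, Foxm1 and Foxs1. Bars are the mean of 2 libraries, circles replicate 1 and triangles replicate 2. Both Myc libraries lie above the others for Foxo1, Foxc1, Foxc2 and Foxm1 and below them for Foxs1.

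Foxf1 (ENSMUSG00000042812.5, chr8:121084386-121088144, plus strand), a factor of lung and vascular mesenchyme, had percentiles of 83.7 and 45.7 (Input), 84.0 and 83.2 (Myc) and 81.5 and 81.5 (PCM1). Its depth-scaled pileup was 33.4 and 21.5 (Input), 49.3 and 45.3 (Myc) and 45.1 and 50.9 (PCM1). The ratio of PCM1 to Input was 1.75, where the median gene had 0.930, and 0.870% of genes had a higher ratio. By percentile, Input replicate 2 stood apart from the other 5 libraries at this TSS. By pileup, both Input libraries lay below the Myc and PCM1 libraries. Foxf2, its relative in pericytes and palate mesenchyme, had weak TSS peaks at 26.6 and 0 (Input), 22.8 and 22.7 (Myc) and 0 and 0 (PCM1), and the peak covered the start of the noncoding 1700018A04Rik as well, which lies 24 bp away.

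Foxs1 (ENSMUSG00000074676.2, chr2:152931898-152933208, minus strand), known from pericytes and vascular smooth muscle, went the other way. Its TSS percentiles were 77.5 and 64.3 (Input), 56.7 and 51.6 (Myc) and 77.1 and 64.9 (PCM1). Both Myc libraries were below the other 4, by a mean of 16.8 points from Input and 16.8 points from PCM1, with at most 13.2 points between replicates. On the depth-scaled pileup the values were 30.6 and 33.2 (Input), 24.3 and 25.1 (Myc) and 45.1 and 35.4 (PCM1). Myc was at 0.774 of Input and 0.613 of PCM1, and 94.4 and 98.1% of genes had higher ratios. Foxs1 was the only Fox gene whose TSS was lower in both Myc libraries than in both libraries of another group by percentile of the full lists.

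Markers of cell types were compared between groups in the same way. Between Myc and PCM1, 43.5% of all genes were higher in Myc and 4.98% were lower. All 8 fibroblast markers and 5 of 8 endothelial markers were higher in both Myc libraries than in both PCM1 libraries. None of either list was lower. Their median percentile was 74.6 and 50.2 (Input), 69.1 and 69.3 (Myc) and 48.0 and 41.4 (PCM1) for the fibroblast list, and 64.1 and 32.7, 63.8 and 66.1, and 29.2 and 42.3 for the endothelial list. Pdgfra, Lum and Pecam1 had no TSS peak in either PCM1 library, and Myc replicate 1 was at 3.29 for Lum and 0.265 for Pecam1. The Myc libraries were deeper than the PCM1 libraries and their lists were longer. Markers were not compared with lists of equal length or by pileup. Of the smooth muscle and pericyte markers, 2 of 8 were higher in Myc than in PCM1 and 1 was lower. Of the epicardial markers, 4 of 8 were higher in Myc than in PCM1 and 0 were lower. For the cardiomyocyte list, 3 were higher, 4 were lower, and the median lay between 89.3 and 94.0 in all 6 libraries. Against Input, 0 cardiomyocyte markers were higher in Myc and 4 of 8 were lower, where 20.3% of all genes were higher and 5.66% lower. Of the other lists, 1 fibroblast, 3 endothelial and 3 epicardial markers were higher in Myc than in Input, 0 smooth muscle and pericyte markers were, and none of these 4 lists had a lower one. Whether the cells in a library had a part in the differences at Foxc1, Foxc2, Foxo1 or Foxs1 was not tested, and more cells of a type and more open chromatin per cell cannot be told apart in these samples.

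The remaining members had TSS peaks of very different strength. Foxd1, of kidney stroma, had a peak in every library, at 71.0 and 47.0 (Input), 55.5 and 44.9 (Myc) and 46.7 and 40.0 (PCM1). Foxd2 was at 92.2 and 90.4 (Input), 92.9 and 93.4 (Myc) and 84.9 and 82.1 (PCM1), and shares its peak with the noncoding Foxd2os, which starts 384 bp away. Foxe3, a lens gene, was the most uneven TSS, at 63.9 and 0 (Input), 62.2 and 47.7 (Myc) and 7.32 and 0 (PCM1), with the summit between 610 and 685 bp inside its gene of 867 bp. The mean of Foxe3 in Myc was 51.3 points above PCM1, against 14.6 points between the Myc replicates.

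Other members with a TSS peak in 1 to 5 libraries were weak or uneven. Foxb2 was at 5.30 and 0 (Input), 0 and 0 (Myc) and 40.7 and 0 (PCM1). For Foxl2, of the ovary, the values were 12.9 and 36.7 (Input), 28.0 and 0 (Myc) and 13.1 and 0 (PCM1). For both genes replicates of at least 1 group disagreed about the presence of a peak.

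Foxi3, of ear and tooth ectoderm, was at 30.8 and 6.23 (Input), 0 and 36.4 (Myc) and 0 and 0 (PCM1), a mean difference of 18.5 points between Input and PCM1 that is smaller than the 24.6 points between the Input replicates. The endodermal pioneer gene Foxa1 was at 32.4 in Input replicate 1 and 31.1 in Myc replicate 1 and had no peak within 1 kb of the gene start in the other 4 libraries. Its coding transcript starts 795 bp further inside, and within 1 kb of that start Myc replicate 2 had a peak as well, at 32.5. Foxd4 had a peak in Input replicate 1 alone, at 23.0. Foxe1, of the thyroid, was at 19.5 and 2.81 (Input), 10.1 and 11.0 (Myc) and 19.2 and 0 (PCM1). Foxa2 and Foxi2 had a peak in Input replicate 1 alone, at 15.9 and 7.24, and Foxn4 in PCM1 replicate 2 alone, at 10.9. None of these 4 genes exceeded 19.5 in any library. The TSS peak of Foxe3 rested on few reads, with a summit pileup of 47 in Input replicate 1, 24 and 17 in Myc, and 7 in PCM1 replicate 1.

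Over the family, 10 of 44 TSSs (22.7%) were higher in both Myc libraries than in both Input libraries, where 20.3% of all genes were, and 1 (2.27%, against 5.66%) was lower. Against PCM1, 22 (50%, against 43.5% of all genes) were higher in Myc and 1 (against 4.98%) was lower. Between PCM1 and Input, 0 were higher in PCM1 (against 2.38%) and 8 (18.2%, against 24.2%) were lower. The family as a whole thus differed between groups about as often as other genes, and its shares give no result particular to it. The 10 above Input were Foxa3, Foxc1, Foxc2, Foxd2, Foxj1, Foxj2, Foxk1, Foxm1, Foxo1 and Foxp1, and the 8 lower in PCM1 were Foxd1, Foxd2, Foxi3, Foxj1, Foxn2, Foxo3, Foxo6 and Foxp3.

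Counts against Input rested on its replicates, which differ in depth. The share of all genes was not calculated at the settings of this paragraph, so the counts show only how they moved. Leaving out a library compares 1 library with 2, a condition that any gene meets more easily. Without Input replicate 1, 22 Fox TSSs were higher and 2 lower in Myc, and 8 were higher and 9 lower in PCM1. Without Input replicate 2, 10 were higher and 16 lower in Myc, and 0 were higher and 30 lower in PCM1. Leaving out PCM1 replicate 1 gave 16 lower than Input and 1 higher, leaving out PCM1 replicate 2 gave 9 and 1, and leaving out Myc replicate 1 or 2 gave 4 or 2 lower in Myc than in Input. The 1 TSS lower in Myc than in PCM1 became 2 without PCM1 replicate 1 and 3 without PCM1 replicate 2. With the strongest 75336 peaks of each library, 14 TSSs were higher and 3 lower in Myc than in Input, the latter being Foxd1, Foxo6 and Foxs1. Foxd2 was then no longer among those higher than Input. Under this setting 15 were higher and 2 lower in Myc than in PCM1 (Foxf1 and Foxs1), where Foxf1, Foxf2, Foxk2, Foxn3, Foxo3, Foxo4 and Foxp2 were no longer higher, and 2 were higher in PCM1 than in Input (Foxf1 and Foxo1). The difference of Foxs1 was then -28.2 points from Input and -34.0 points from PCM1, that of Foxc2 33.3 and 33.2 points, and Foxf2 had no peak left.

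**Figure D3:**
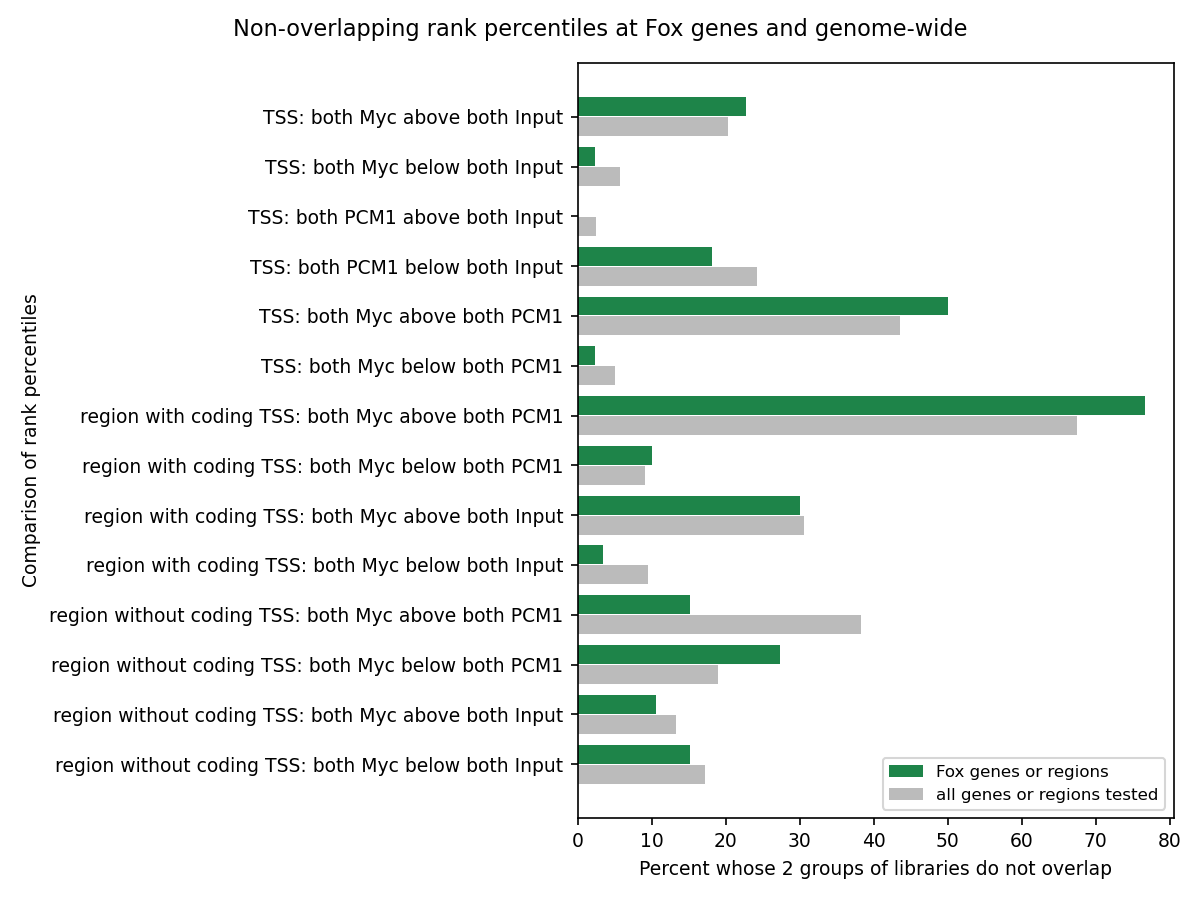
Percent of Fox genes or regions (green) and of all genes or regions (grey) whose libraries did not overlap between 2 groups (x axis, starting at 0), in each direction. The upper 6 rows are TSS percentiles of 44 genes and the lower 8 rows are regions with a peak in all 6 libraries. The widest distance between green and grey bars is for regions without a coding TSS, where 15.2% of Fox regions against 38.3% of all regions were higher in Myc than in PCM1.

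Merged over the 6 libraries, peaks formed 349 regions in Fox genes and 2 kb to either side, of 169872 regions in all. Of these, 96 (27.5%, against 28.8% of all regions) had a peak in every library, 115 had a peak in 1 library, and 42 of those were in Input replicate 1, the deepest. By the position of the strongest summit, 265 of the 349 lay in introns, 26 in exons outside the coding sequence, 26 upstream, 20 in coding exons and 12 downstream. Without the PCM1 libraries, 117 of the 349 regions had a peak in all Input and Myc libraries. Among regions of the genome with a peak in Input or Myc, 38.1% did. The 349 also include regions with a peak in PCM1 alone, so these are not like shares. Of the 117, 31 held a coding TSS, with 9 higher and 1 lower in Myc than in Input, and 86 did not, with 12 higher and 15 lower. The shares of all regions for these directions were not calculated without the PCM1 libraries, so no reading is made of them.

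The most regions lay in 2 long genes, counted over the gene and 2 kb to either side. Foxp1 held 103 regions and Foxn3 72, with 25 and 18 present in every library. These genes are 597384 and 373505 bp long, and per 10 kb they held 1.71 and 1.91 regions. In other long members this was 2.22 in Foxo3, 1.80 in Foxo1, 1.25 in Foxj3, 1.11 in Foxk2 and 0.743 in Foxn2. The value over all genes was not calculated. Foxp2 is nearly as long as Foxp1 (540629 bp) and held 20 regions, or 0.367 per 10 kb, with 3 present in every library. Foxo3 held 22 regions and Foxo1 16, of which 6 and 1 were present in every library.

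Several intronic regions were as strong as promoters. The strongest, in an intron of Foxk1 39168 bp from the TSS (chr5:142440130-142441033), was at 98.9 and 98.1 (Input), 96.8 and 97.5 (Myc) and 99.5 and 99.2 (PCM1), above the Foxk1 TSS in every library. In its printed window a GC box and a CCAAT box match lie near the summit. The strongest region of Foxp1, 37322 bp from the TSS in an intron (chr6:99485043-99486172), was at 95.9 and 92.0 (Input), 92.1 and 92.2 (Myc) and 95.7 and 96.5 (PCM1). An intronic region of Foxo6 (chr4:120282496-120283565) was at 93.6 and 93.2 (Input), 86.8 and 89.7 (Myc) and 94.1 and 94.6 (PCM1). In all 3 regions both Myc libraries were below both PCM1 libraries, whereas the annotated gene starts of the same genes were higher in Myc than in PCM1. For Foxp1 the coding TSS nearest to the gene start was lower in Myc.

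Foxn3 carried a second coding TSS far inside the gene (chr12:99392649-99393978) with percentiles of 94.4 and 89.0 (Input), 92.4 and 94.8 (Myc) and 91.8 and 93.0 (PCM1), which were above those of its first TSS in every library. Its strongest intronic region (chr12:99336241-99337092) was at 92.5 and 88.8 (Input), 92.4 and 92.1 (Myc) and 90.8 and 90.7 (PCM1). In Foxp1, coding transcripts that start 494 kb inside the gene had a region (chr6:99027812-99029171) at 89.6 and 79.9 (Input), 89.0 and 89.8 (Myc) and 80.9 and 71.5 (PCM1). The coding TSS nearest to the gene start had a region (chr6:99520908-99522277) at 73.3 and 51.6 (Input), 50.3 and 58.5 (Myc) and 69.8 and 69.8 (PCM1). The starts of Foxp1 therefore did not move together, since the inner coding TSS and the annotated gene start were higher in Myc than in PCM1 and the coding TSS nearest to the gene start was lower.

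**Figure D4:**
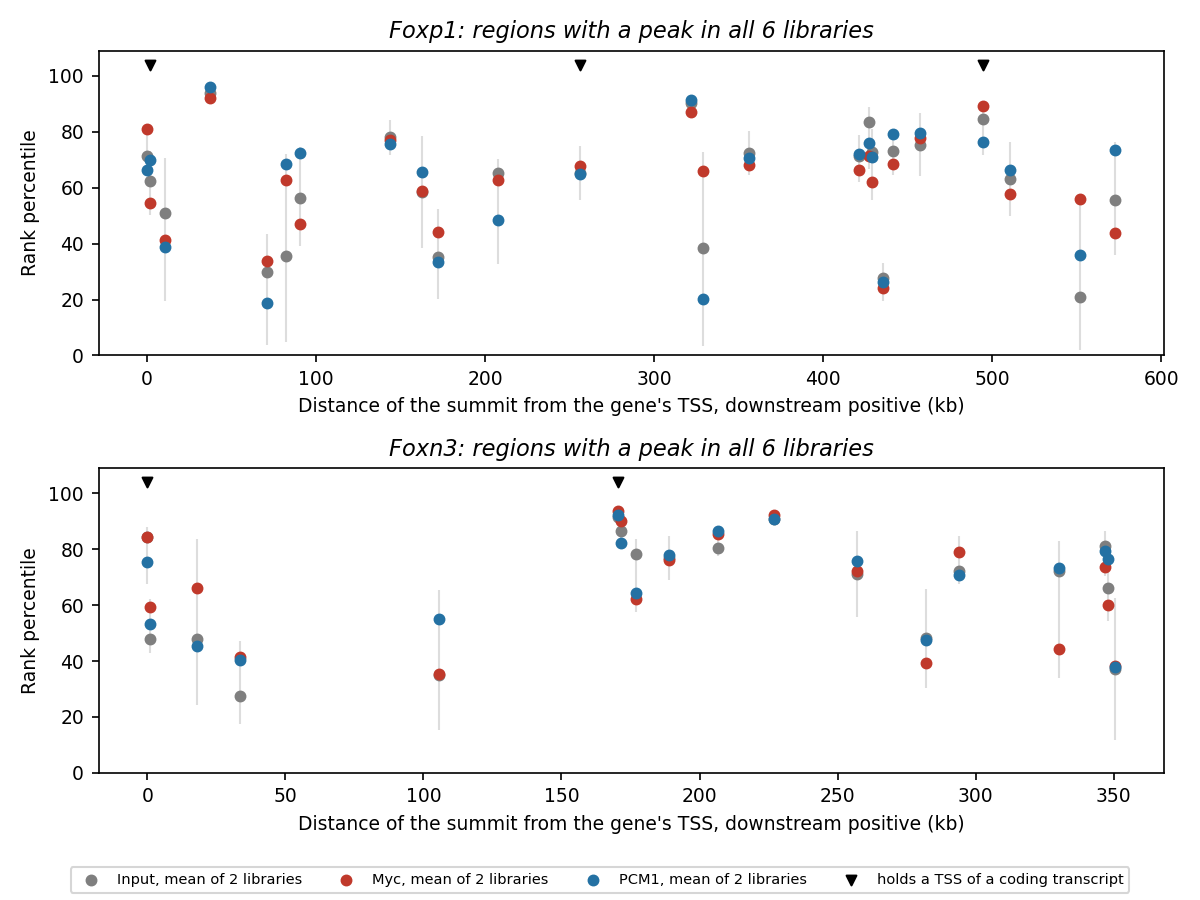
Mean rank percentile of 2 libraries per group (y axis) for the regions of Foxp1 (25 regions) and Foxn3 (18 regions) with a peak in all 6 libraries, by distance of the summit from the annotated gene start in kb (x axis). Grey lines span the 6 libraries, and triangles mark regions that hold a TSS of a coding transcript. In Foxp1 the intronic region at 37 kb ranks above every coding TSS of the gene.

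Regions with and without a coding TSS differed in how Myc and PCM1 compared. Of the 30 Fox regions with a coding TSS and a peak in every library, 23 (76.7%, against 67.4% of 12235 such regions) were higher in Myc than in PCM1 and 3 (10%, against 9.11%) were lower. Of the 66 without a coding TSS, among them the gene start of Foxp1, 10 (15.2%, against 38.3% of 36626) were higher in Myc and 18 (27.3%, against 18.9%) were lower. Against Input, 9 of 30 (30%, against 30.5%) were higher in Myc and 1 (3.33%, against 9.47%) was lower among the former, and 7 of 66 (10.6%, against 13.3%) were higher and 10 (15.2%, against 17.2%) lower among the latter. Regions of 1 gene are not independent, and the difference between Fox regions and all regions was not tested.

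The 18 regions that were lower in Myc lay in 8 genes, 7 of them in Foxp1, 3 in Foxn3, 2 in Foxk1, 2 in Foxo6 and 1 each in Foxj3, Foxk2, Foxn4 and Foxo3. With the strongest 75336 peaks of each library, 3 of 52 such regions were higher in Myc (5.77%, against 21.04% of all such regions) and 26 lower (50%, against 36.3%). Without PCM1 replicate 1, 35 of 76 were higher in Myc (46.1%, against 52.3%) and 24 lower (31.6%, against 27.5%), closer to the shares of all regions than with all libraries. Without PCM1 replicate 2, 17 of 67 were higher (25.4%, against 50.9%) and 34 lower (50.7%, against 28.5%). Leaving out Myc replicate 1 gave 18 of 71 higher (25.4%, against 49.9%) and 25 lower, and leaving out Myc replicate 2 gave 18 of 67 higher (26.9%, against 47.9%) and 28 lower.

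**Figure D5:**
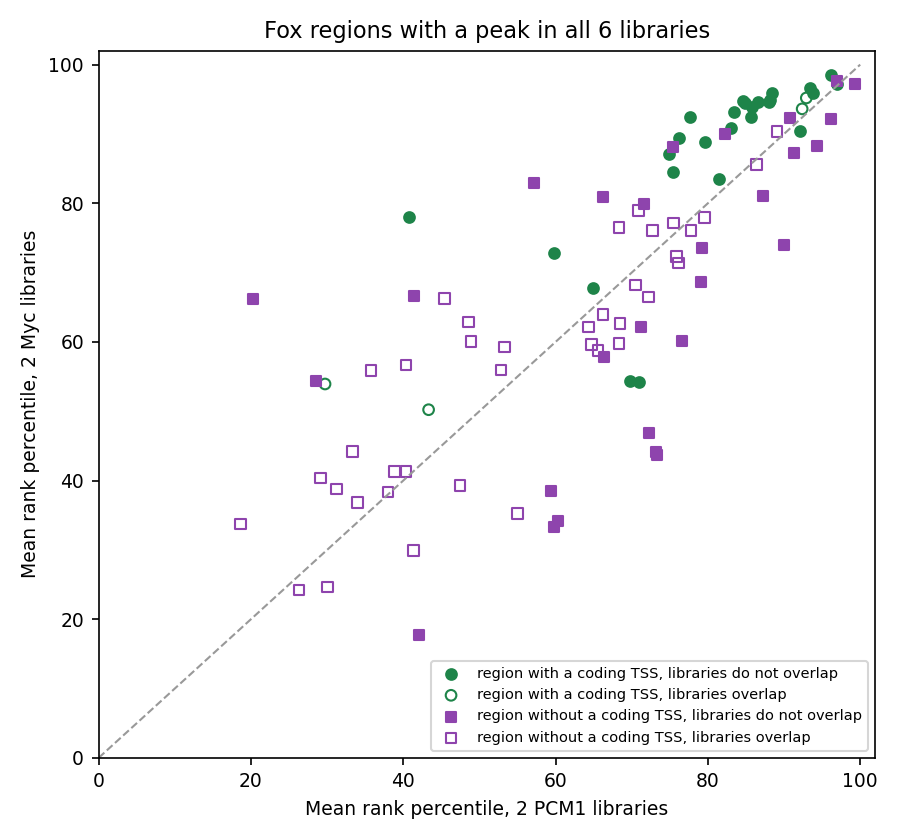
Mean rank percentile of the 2 Myc libraries (y axis) against that of the 2 PCM1 libraries (x axis) for 96 Fox regions with a peak in all 6 libraries. Green circles are the 30 regions with a coding TSS and purple squares the 66 without, filled where both Myc libraries lie above or below both PCM1 libraries, and the dashed line marks equal values. Most green points lie above the line, and purple points lie on both sides.

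A peak in both libraries of 1 group and in no other library was found at 7 Fox regions in Input (2.01%, against 1.08% of all regions), 6 in Myc (1.72%, against 1.84%) and 0 in PCM1 (against 0.254%). Those of Input lay in Foxn3 (2 regions), Foxf2, Foxn4, Foxo1, Foxo3 and Foxp4, with the strongest in Foxo3 at 54.8 and 15.6. The others were at 22.2 and 4.39 and at 32.1 and 24.2 in Foxn3, 0.297 and 5.17 in Foxf2, 28.8 and 15.7 in Foxn4, 46.6 and 5.05 in Foxo1, and 43.7 and 26.8 in Foxp4, all in introns. Those of Myc included regions in Foxp2, Foxp1, Foxj2, Foxd3 and Foxf2. The strongest of Myc, at 53.8 and 40.6, lay 296134 bp inside Foxp2 at chr6:15197337-15197667, within 1 kb of a coding TSS of Foxp2 at which no other library had a peak. The Foxp1 region of Myc, printed above, was at 40.1 and 26.3. Weaker ones were at 20.7 and 20.2 in Foxj2, 6.47 and 16.5 in Foxd3, and 2.03 and 10.9 in Foxf2. Leaving out 1 library of a group raised these counts by construction, to 14 and 49 (Input), 24 and 30 (Myc) and 10 and 16 (PCM1), and without Input replicate 1 there were 20 regions of Myc alone and 3 of PCM1 alone, and without Myc replicate 1 there was 1 of PCM1 alone.

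CpG content differed between Fox promoters. In the 300 bp around the TSS, the ratio of observed to expected CpG was at least 0.6 in 29 of 44 Fox genes (65.9%, against 44.4% of all genes). This held for 19 of the 22 with a TSS peak in every library, where 70.5% of all such genes reached it, for 6 of the 12 with a peak in some libraries, and for 4 of the 10 without a peak, where 4.75% of all genes without a peak did. The median ratio was 0.874, 0.593 and 0.313 in these 3 sets of Fox genes. The GC box was found in 27 of 44 Fox promoters (61.4%, against 43.0%), the CCAAT box in 15 (34.1%, against 39.0%), the ETS motif CCGGAAG in 1 (2.27%, against 10.8%), and none held the forkhead core (against 3.05%), the GATA motif AGATAA (against 10.2%) or the MEF2 motif CTATTTATA (against 0.424%). These shares describe the letters in this window and say nothing of the factors.

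Within 201 bp around the summits, the forkhead core was found in 11 of 349 Fox regions (3.15%, against 2.81% of all regions). Of these, 6 lay in Foxp1, 2 in Foxn3 and 1 each in Foxo3, Foxn2 and Foxo4. The match printed for the Foxo3 intron lies in a region at 87.7 and 78.2 (Input), 70.6 and 49.5 (Myc) and 57.3 and 40.5 (PCM1), where both Input libraries were highest. CTATTTTTA was found in 8 (2.29%, against 1.41%), 3 of them in Foxp1, and its match in the Foxp1 intron is printed above. These letters were added because of that match, which is among the 8, so the shares cannot show an excess. The MEF2 motif CTATTTATA was found in 3 (0.860%, against 0.958%) and the ETS motif in 6 (1.72%, against 2.63%). The GATA motif was found in 38, also a smaller share than over all regions. The GC box was found in 64 (18.3%, against 11.2%), and the CCAAT box in 65 (18.6%, against 22.6%).

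Most genes listed around FoxO and FoxM1 had a TSS peak in every library, as did 56.1% of all genes. Of 22 regulators of the FoxO pathway, among them receptors, PI3K and AKT genes, the deacetylase gene Sirt1 and genes of 14-3-3 proteins, 16 had a TSS peak in every library and 4 (Sgk1, Usp7, Skp2 and Ywhaz) had none at the annotated gene start. Of 18 FoxO targets, 17 had a peak in every library, with Gabarapl1 the exception, and they included Sod2, an antioxidant enzyme, between 99.4 and 99.9 in all 6 libraries. The atrophy gene Trim63 was at 93.5 and 88.5 (Input), 86.1 and 85.5 (Myc) and 93.5 and 94.9 (PCM1). Between Myc and Input, 4 regulators were higher and 7 lower in Myc and 4 targets were higher and 5 lower, and between Myc and PCM1 12 regulators were higher and 2 lower and 8 targets were higher and 5 lower. Over all genes, 20.3% were higher and 5.66% lower in Myc than in Input, and 43.5% were higher and 4.98% lower than in PCM1. Without the PCM1 libraries, 17 regulators and all 18 targets had a peak in every library.

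All 15 FoxM1 targets, genes of mitosis, had a TSS peak in every library. Both Myc libraries were above both Input libraries for 10 of them and below for 0, and above both PCM1 libraries for 14 and below for 0, where 20.3 and 43.5% of all genes were higher. Since all 15 have a peak in every library, the shares among regions with a coding TSS and a peak in every library, 30.5 and 67.4%, stand closer to them. The kinase gene Nek2 was at 93.4 and 83.3 (Input), 96.6 and 97.4 (Myc) and 88.7 and 89.3 (PCM1). Top2a, which untangles chromosomes, was at 90.3 and 81.2 (Input), 95.5 and 95.8 (Myc) and 77.6 and 79.2 (PCM1). In Myc, the peak that Foxm1 shares with Rhno1 was above both groups as well, by a mean of 5.42 points from Input and 9.17 points from PCM1. The difference from Input is below the 6.98 points between the Input replicates. By pileup, 22.8 and 34.6% of genes with a TSS peak in every library had higher ratios of Myc to Input and to PCM1.

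Set beside other families of transcription factors, 22 of 44 Fox genes (50%) had a TSS peak in every library, against 13 of 19 Sox genes (68.4%), 7 of 17 T-box genes (41.2%) and 4 of 6 Gata genes (66.7%). No peak in any library was found for 10 Fox genes, 1 Sox gene, 5 T-box genes and 1 Gata gene. Without the PCM1 libraries, 23 Fox, 14 Sox, 7 T-box and 4 Gata genes had a peak in every library. Both Myc libraries were above both PCM1 libraries for 11 of 19 Sox genes, 4 of 17 T-box genes and 0 of 6 Gata genes. They were below for 1, 2 and 2. Of the 44 Fox genes 22 were above and 1 below, and of all genes 43.5% were above and 4.98% below. These families were set side by side as counts, and their differences were not tested.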

How the data were processed

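Omni-ATAC-Seq libraries of 3 groups with 2 replicates each were used as the 6 lists of peaks that the authors deposited. The authors trimmed reads, mapped them to mm10 with Bowtie2 2.3.3.1, marked duplicates with Picard 2.2.1, removed blacklisted regions, shifted alignments for the transposase and ran MACS2 2.1.0.20160309 on every library by itself at a q-value of 0.05, without a control library. The submitters' processing notes also list FastQC 0.11.5, bedtools 2.7.1 and HOMER. Each deposited peak has a fold enrichment, which is the ratio of the summit pileup to the local background, a −log10 p-value and a −log10 q-value, which the authors obtained from MACS2. The deposited score is a rescaled q-value made by the authors' peak caller and was not used for any result.

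From these values, the summit pileup was recovered as a whole number of reads (tolerance 0.02, at least 99.998% of peaks per library), and peaks were ranked within each library. Peaks were assigned to 21911 protein-coding genes of GENCODE M21 in Python 3.11.15 with numpy 2.4.6 and pandas 2.3.3. The TSS window was 1 kb to either side and the gene window 2 kb beyond the gene. The scripts were tested on simulated data. No p-value was calculated per gene, since 2 libraries against 2 cannot pass a threshold.

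The members, lists and tests were chosen with earlier results of these data known. Members are named with their class, except for 1 that is counted but not reported here. Values in every library are given for the 8 members with the highest lowest percentile, for the members with a TSS peak in 1 to 5 libraries, the most uneven first, for members whose groups did not overlap with means at least 10 points apart, for 11 members chosen for their roles, and for regions of 1 group alone. Alternatives were a stricter q-value of 0.01, an equal number of peaks, other windows, other ranks, a replicate block and leaving out each library. The counts without the PCM1 libraries, the comparison of regions without a coding TSS and the letters CTATTTTTA were added after seeing the data. Printed sequences come from the GRCm38.p6 genome. RefSeq promoters were given for 28 of the 44 genes and were equal to it in all 33 entries.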

Additional observations from a re-analysis of the deposited data

How the results depend on the processing

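Results were recomputed with one choice changed at a time, and the cause of each change was not tested unless fewer peaks or libraries made it. Shares of all genes or regions were not calculated for the counts below. The exception is regions without a coding TSS, with an equal number of peaks or a library left out, whose shares are given above. With an equal number of peaks per library, 3 Fox TSSs were lower in Myc than in Input, 2 lower in Myc than in PCM1 and 2 higher in PCM1 than in Input, 4 regions were of Input alone, 2 of Myc alone and 2 of PCM1 alone, 3 regions without a coding TSS were higher in Myc than in PCM1, and Myc had a mean of 137.5 peaks in Fox genes. With the pileup over the genome background, 16 TSSs were higher in Myc and 6 higher in PCM1 than in Input. With ranks by fold enrichment, 3 TSSs were lower in Myc than in Input and 2 lower than in PCM1. A TSS window of 200 bp left 19 genes without a peak and 2 TSSs lower in Myc than in PCM1, a window of 2 kb left 6 genes without a peak, and with the summit in the window 2 TSSs were lower in Myc than in PCM1 and 1 was higher in PCM1 than in Input. Gene flanks of 10 kb gave 10 regions of Myc alone, 1 of PCM1 alone and 20 regions without a coding TSS higher in Myc than in PCM1, and a cover of 50% of the region gave 1 of PCM1 alone.

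Leaving out each library in turn gave 10 to 22 TSSs higher and 1 to 16 lower in Myc than in Input, 0 to 8 higher and 8 to 30 lower in PCM1 than in Input, and 1 to 3 lower in Myc than in PCM1. It gave 7 to 49 regions of Input alone, 6 to 30 of Myc alone and 0 to 16 of PCM1 alone, and 10 to 35 regions without a coding TSS higher and 18 to 34 lower in Myc than in PCM1. The labels give replicate numbers that nothing ties to a shared heart or day, so they were not taken as pairs. With the replicate block, in which same-numbered libraries were compared, 11 TSSs were higher and 3 lower in Myc than in Input, and 0 were higher and 15 lower in PCM1 than in Input. It also gave 23 higher and 1 lower in Myc than in PCM1.

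The differences in percentile points moved with the window and the list length. With an equal number of peaks, that of Foxf2 between Myc and PCM1 was 0.0, that of Foxe3 35.4, that of Foxp1 9.43 and that of Foxp2 4.90, and that of Foxi3 between PCM1 and Input was -3.11. With a window of 200 bp, the difference between Myc and PCM1 was 65.4 for Foxp1, 44.1 for Foxp2 and 23.8 for Foxe3. Peaks that do not reach this window no longer count. In the main window the strongest PCM1 peaks of Foxp1 had summits 725 and 675 bp upstream. That of Foxp2 in PCM1 replicate 1 lay 545 bp upstream. These differences may therefore rest on peaks lost from the window and are not read as larger ones.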

Other observations

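Fox genes lie in clusters in the mouse genome, and 3 clusters were examined with flanks of 10 kb. The cluster of Foxf1, Foxc2 and Foxl1 on chromosome 8, which spans 46259 bp, held 12 regions, of which 7 had a peak in every library. All 7 were higher in both Myc libraries than in both PCM1 libraries. The cluster of Foxq1, Foxf2 and Foxc1 on chromosome 13 held 24 regions, and all 6 with a peak in every library were higher in Myc than in PCM1. In the cluster of Foxd2 and Foxe3 on chromosome 4, 1 of 5 regions had a peak in every library and was higher in Myc. Over the genome, 67.4% of regions with a coding TSS and a peak in every library and 38.3% of those without a coding TSS were higher in Myc than in PCM1. Regions of a cluster are not independent, and no test was made.

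Noncoding genes named after or known to pair with Fox genes shared their peaks in part. Fendrr, a noncoding RNA of lateral mesoderm, starts 1276 bp from Foxf1 on the other strand and was scored by the same peak. Foxo6os starts 4001 bp from Foxo6 and had percentiles of its own, at 70.4 and 49.5 (Input), 46.1 and 61.3 (Myc) and 65.1 and 68.6 (PCM1), where Myc and Input overlapped and both Myc libraries were below both PCM1 libraries.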
